A study of Mus musculus with 36 samples.

Results

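The stria vascularis of adult CBA mice, 9 months old, was compared with that of young CBA mice, 1 month old, across all genes. CBA, given as CBA/J in the study, is an inbred strain, and the animals carried no introduced allele and received no treatment. Of the 9 libraries in the series, 6 belong to these ages, 3 at 1 month and 3 at 9 months, and they correspond to 24 of the 36 repository entries because each library was sequenced in 4 runs. Each library, named A, B or C within an age, was a pool from 4 cochleae of 2 mice of either sex, with about 1000 cells. The stria had been peeled from the spiral ligament and dissociated, so marginal, intermediate and basal cells were mixed in every pool and no cell type was measured alone. The comparison asks how the transcriptome of the stria changes between a young animal that already hears and a mature adult.

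The stria vascularis is a layered epithelium with its own capillaries in the lateral wall of the cochlea. Marginal cells face the endolymph and secrete potassium into it, intermediate cells are pigment cells whose potassium channel sets up most of the endocochlear potential, and basal cells seal the stria from the ligament behind it. Potassium reaches the stria from the fibrocytes of the spiral ligament through gap junctions, and the whole tissue depends on a high rate of ion pumping.

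Abundant markers of intermediate and marginal cells were present in all 6 libraries. Dct, a melanin enzyme of the intermediate cells, had 3428 ± 73.3 RPKM at 1 month and 3263 ± 57.5 RPKM at 9 months (reads scaled to transcript length and to the mapped reads of the library, given throughout as mean ± SD over n = 3 libraries), and Kcne1, a subunit of the marginal cell potassium channel, had 743 ± 44.2 and 774 ± 18.6 RPKM. Of 17 hair cell markers 12 did not pass the filter on low values given below, with the defining factors Pou4f3 and Atoh1 listed at 0. Not every pigment gene was present, however: Oca2 was listed at 0 and Tyrp1 reached 0.025 RPKM at most. The low values of Kit and Pmel are given below. The libraries held 14818 to 14872 genes of at least 0.1 RPKM at 1 month and 15244 to 15298 at 9 months. Some were almost identical: over 824 genes of at least 50 RPKM young libraries B and C had a median coefficient of variation of 1.23% and adult libraries A and C one of 1.46%, while the remaining pairs within an age ranged from 4.02 to 8.12%. The deposited description calls the pools independent, whereas the study's methods give fewer biological replicates with technical repeats, so n = 3 follows the description and the p-values measure only the spread between these libraries, part of which may be technical. Xist, transcribed from the inactive X chromosome, had 0.225 to 0.3 RPKM at 1 month and 1.18 to 2.05 RPKM at 9 months, and the Y-linked Ddx3y 6 to 7.05 and 4.45 to 7.55 RPKM. The sex make-up of the pools and age cannot be told apart for genes that depend on it.

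The libraries differed most between the 2 ages. Any difference in preparation or sequencing between these 2 groups cannot be told apart from age. The first principal component of log2(RPKM + 0.1) held 82.7% of the variance and separated the ages, and the second, with 8.11%, set library B at 9 months apart from the others. Of 48709 genes in the table, 15243 reached 0.1 RPKM in at least 3 of the 6 libraries and were tested with limma. Genes were called where p adjusted by Benjamini and Hochberg did not exceed 0.10 and the log2 fold change was 1 or more in size. By this rule 1584 genes were higher at 9 months, 10.4% of those tested, and 227 were lower, 1.49%. The median of all genes was itself shifted up by 0.28 on the log2 scale, a 1.21-fold difference. RPKM values are shares of a library, so with this shift subtracted the counts became 674 higher, or 4.42%, and 414 lower, or 2.72%. All 227 lower genes and 674 of the higher ones were called in the same direction on both scales, the deposited scale and the scale relative to the median of all genes, and below "rose" and "fell" are used of genes called on both unless a scale is named. Between these extremes, 66.1% of genes lay within 0.5 log2 units of the median. Of all genes tested 4.42% thus rose and 1.49% fell, and counts of list members below are to be read beside these shares. Values of the 2 ages did not overlap for 66.8% of all genes tested, so the absence of overlap at a single gene is not a distinguishing feature. With the near-identical libraries averaged, which leaves 2 against 2, 1507 genes were higher and 219 lower, and 1426 and 208 of these were among the 1584 and 227. Without library B at 9 months, 1837 were higher and 261 lower.

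**Figure D1:**
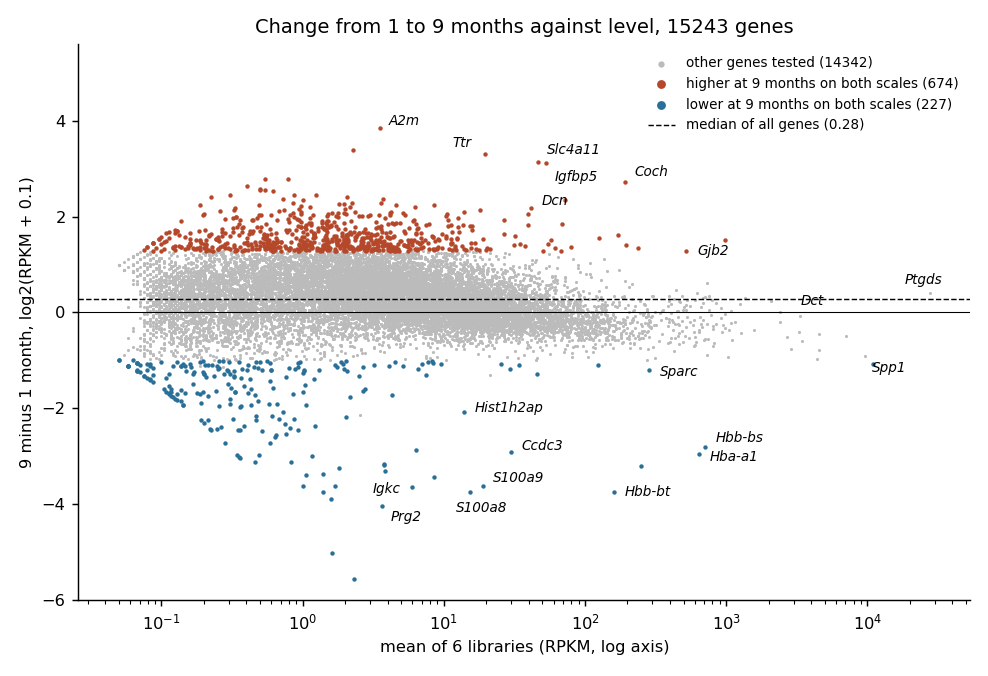
Log2 fold change from 1 to 9 months (log2(RPKM + 0.1), y axis) against the mean of the 6 libraries (RPKM, log axis) for the 15243 genes tested, 1 point per gene. Red points are the 674 genes higher and blue points the 227 genes lower on both scales, grey points the others, and the dashed line is the median of all genes at 0.28; the abundant genes that fell most are haemoglobins.

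The size of the change followed the length of the transcript. With genes divided into 10 bins of equal size by summed exon length, the median log2 fold change went from −0.16 in the shortest bin, 183 to 1331 bases, to 0.70 in the longest, from 9459 bases. The share of genes called higher on the deposited scale was 5.65% in the shortest bin and 23.3% in the longest, and the share called lower was 6.05% and 0.0657%. In 5 coarser length bins, genes of at least 10 RPKM had medians of −0.23 in the shortest and 0.38 in the longest. At 9 months the trend was also present between libraries of the same age: library B against A had a median of 0.11 in the shortest of the 5 bins and −0.14 in the longest. With the trend of each library removed, 603 genes were higher, 3.97% of the 15207 genes with a known length, and 293 lower, 1.93%, and 438 and 198 genes were called in the same direction on all 3 scales. Values with the length trend removed are given below for most lists, and the part of length in the difference between the ages was not tested. Chromosomes differed little, with medians from 0.23 on chromosome 15 to 0.36 on chromosome 1.

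**Figure D2:**
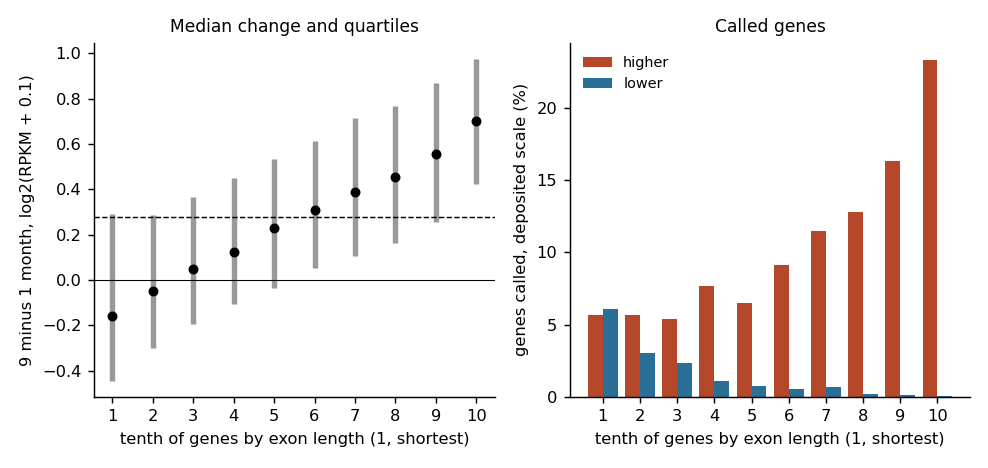
Left, median log2 fold change from 1 to 9 months (points) with quartiles (grey bars) in 10 bins of genes by summed exon length, from the shortest (1) to the longest (10), with a solid line at 0 and a dashed line at the median of all genes. Right, percent of genes called on the deposited scale, higher (red) and lower (blue): higher calls go from 5.65 to 23.3% and lower calls from 6.05 to 0.0657%.

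Among genes of at least 5 RPKM at some age, the 5 largest increases were those of A2m, Ttr, Slc4a11, Igfbp5 and Coch. A2m, a broad inhibitor of proteases (chromosome 6, 121635376 to 121679227, GRCm38), had 0.45, 0.3 and 0.375 RPKM in libraries A, B and C at 1 month and 6.7, 6.4 and 6.85 RPKM at 9 months. It was near the limit of detection in the young stria and clearly present in every adult library, a log2 fold change of 3.84 (SE 0.119, limma adjusted p = 4.15e-06). Igfbp5, a binding protein of insulin-like growth factors (chromosome 1, 72857932 to 72874884), had 11.03, 10.7 and 10.7 RPKM at 1 month and 97.4, 90.3 and 96.1 RPKM at 9 months. The 3 young values lay within 0.4 RPKM of each other, and the log2 fold change was 3.12 (SE 0.0494, limma adjusted p = 8.25e-07). Slc4a11, a membrane transporter of the SLC4 family that ligament fibrocytes need (chromosome 2, 130684113 to 130697519), had 8.48, 9.73 and 10.1 RPKM at 1 month and 83.9, 87.5 and 80.6 RPKM at 9 months, again with no young library near an adult one. Coch, the secreted cochlin of the ligament, was the most abundant of these genes: it had 52.4, 49.7 and 49.4 RPKM at 1 month and 350, 307 and 347 RPKM at 9 months. Library B was the lowest of the adult values and still several times above the young ones. Ttr, the carrier of thyroxine and retinol-binding protein, rose from 3.54 ± 0.439 to 35.7 ± 2.36 RPKM.

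By the naming rule, 179 genes that rose had at least 5 RPKM at some age, and the other 10 of the 15 with the largest change had log2 fold changes from 2.06 to 2.29. Matrix genes among them were Dcn, the proteoglycan decorin that binds collagen, with 14.9 ± 0.805 and 67.6 ± 3.76 RPKM, and Efemp1, fibulin-3, with 5.16 ± 0.366 and 22.5 ± 2.38 RPKM. Slc26a7, an anion transporter, had 1.65, 1.43 and 1.45 RPKM at 1 month and 7.48, 5.18 and 8.05 RPKM at 9 months, with library B lowest, as it was for Rab21, a small GTPase of endosomes, which had 15.9, 10.4 and 16.6 RPKM at 9 months. The signalling genes were Gna12, the alpha subunit of a heterotrimeric G protein, with 6.62 ± 0.588 and 29.3 ± 1.27 RPKM, Foxk2, a forkhead transcription factor, with 1.53 ± 0.052 and 6.75 ± 0.238 RPKM, and Mtss1l, a protein that links membranes to actin, with 1.15 ± 0.115 and 5.99 ± 0.284 RPKM. Sepn1, a selenoprotein of the endoplasmic reticulum, Sncg, gamma-synuclein, and Lypd2, of the Ly6 family, complete the group, at 8.34 ± 0.231, 17.1 ± 2.73 and 7.67 ± 0.812 RPKM in the adult. All 15 rose with the length trend removed as well, and no alternative setting changed the call of any of them.

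**Figure D3:**
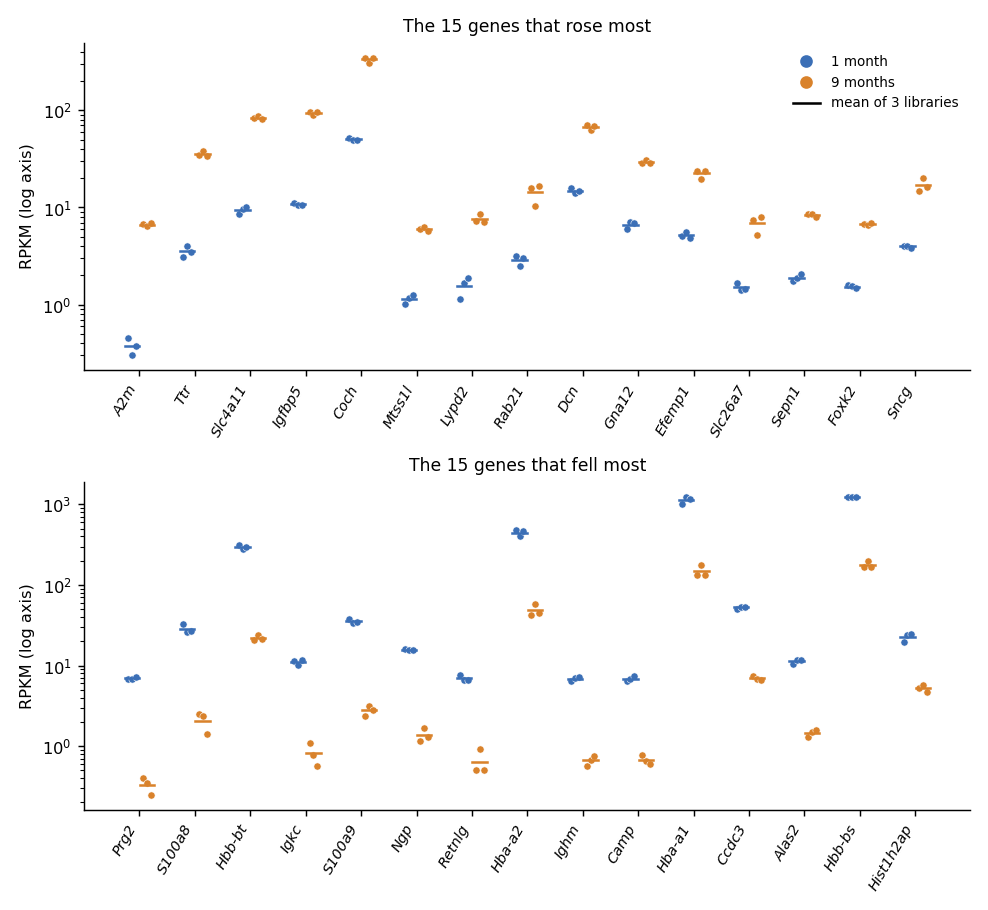
RPKM (log axis) of the 15 genes that rose most and the 15 that fell most by the naming rule, 1 point per library (3 at 1 month, blue, 3 at 9 months, orange) with a bar at the mean. The naming rule admits only genes whose values do not overlap between the ages. The lower panel holds haemoglobin, neutrophil granule and immunoglobulin genes.

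Among the cell type lists, that of ligament fibrocytes held the most genes that rose. Of 16 members tested, 7 rose and none fell, beside 4.42% and 1.49% of all genes tested. The list's median lay 0.54 log2 units above that of all genes and 0.75 with the length trend removed. Their summed level was 194 to 195 RPKM in the young libraries and 719 to 750 RPKM in the adult ones, of which Coch alone had 307 to 350 RPKM. Beside Slc4a11, Coch and Dcn, Otos, the secreted otospiralin, had 27.6, 31 and 30.3 RPKM at 1 month and 102, 118 and 100 RPKM at 9 months (log2 fold change 1.84, limma adjusted p = 8.26e-06). Car3, a carbonic anhydrase of the type I fibrocytes, had 17.0, 17.1 and 17.2 RPKM and then 45.3, 45.4 and 46.5 RPKM, almost without spread in either age. Emilin2, an elastin-associated glycoprotein, rose from 1.48 ± 0.115 to 4.56 ± 0.176 RPKM. These genes are known from ligament fibrocytes, and the ligament had been removed by dissection. Which cells of the pools made these transcripts was not tested. In pooled tissue, more cells of a type and more RNA per cell cannot be told apart.

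Genes of blood and bone marrow moved the other way and hold the largest decreases of the comparison. Prg2, the major basic protein of eosinophil granules (chromosome 2, 84980461 to 84983632), had 6.88, 6.88 and 7.18 RPKM at 1 month and 0.4, 0.35 and 0.25 RPKM at 9 months, a log2 fold change of −4.04 (SE 0.131, limma adjusted p = 4.51e-06). Hbb-bt, a beta globin (chromosome 7, 103812524 to 103813996), had 314, 283 and 296 RPKM in the young libraries and 21.03, 23.7 and 21.4 RPKM in the adult ones. All young values were more than 10 times every adult value of Hbb-bt, and its log2 fold change was −3.75 (SE 0.066, limma adjusted p = 8.25e-07). The other globins kept more of their level: Hbb-bs had 1240, 1222 and 1240 RPKM at 1 month and 167, 198 and 165 RPKM at 9 months, and Hba-a1 had 1023, 1223 and 1172 RPKM and then 134, 176 and 134 RPKM. Hba-a2 fell from 448 ± 37.8 to 48.7 ± 8.27 RPKM. Haemoglobins took 0.836 to 0.875% of summed RPKM at 1 month and 0.107 to 0.134% at 9 months.

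Of 28 red cell markers, 25 were tested, 8 of which passed the filter only through the young libraries. Here and below, passing only through 1 age means that no library of the other age reached 0.1 RPKM. Of the 25, 19 fell, a count to which those 8 had to add. Of the other 17 members 11 fell. Any of these with 0.1 RPKM in fewer than 3 adult libraries also needed the young libraries to pass. The list's sum went from 3179 to 3297 RPKM at 1 month to 472 to 542 RPKM at 9 months. The fall was not restricted to the globins, which persist in enucleated cells. Alas2, the first enzyme of haem synthesis in red cell precursors, fell from 11.3 ± 0.804 to 1.46 ± 0.142 RPKM. The exception was Sptb, beta spectrin, which rose from 0.892 ± 0.0382 to 2.61 ± 0.0946 RPKM (chosen after its values were seen). Sptb is also made outside red cells, and with the length trend removed it was not called.

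The promoters of these genes are shown because red cell genes are known targets of GATA1. Any part of GATA factors in the change between the ages was not tested. RefSeq promoters, 250 bases before to 50 after the start of the gene (GRCm38.p6), were found for 20 of the 28 red cell markers, and 10 of them, 50%, held the letters AGATAA, which GATA factors bind, on either strand. The same letters were in 12.7% of all 27025 genes with a promoter and in 7.93% of the 11053 tested genes with one. Capitals mark the letters, given on the gene's strand as AGATAA or, where the match is on the other strand, as TTATCT.
Hbb-bs (chr7:103827879-103828178, minus strand): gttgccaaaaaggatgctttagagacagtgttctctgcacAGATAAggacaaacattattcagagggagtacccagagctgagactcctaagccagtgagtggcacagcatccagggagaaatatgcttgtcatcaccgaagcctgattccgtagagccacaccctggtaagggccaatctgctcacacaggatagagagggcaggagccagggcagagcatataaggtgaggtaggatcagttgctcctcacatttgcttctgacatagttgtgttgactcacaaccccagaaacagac
Alas2 (chrX:150547167-150547466, plus strand): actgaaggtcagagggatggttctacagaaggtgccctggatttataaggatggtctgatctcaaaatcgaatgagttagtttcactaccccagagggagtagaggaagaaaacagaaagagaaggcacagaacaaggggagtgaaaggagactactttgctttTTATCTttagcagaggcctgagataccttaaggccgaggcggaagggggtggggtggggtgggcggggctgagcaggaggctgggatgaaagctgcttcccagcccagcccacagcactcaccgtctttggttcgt
The promoters of Hbb-bt, Hba-a1 and Hba-a2 held no such match in this window. No other letters were searched, so the absence of AGATAA does not show that a promoter lacks a GATA site. Those of Hba-a1 and Hba-a2, offset by 3 bases, were identical over all 297 bases compared. The identity of the globin transcripts was not computed. How reads were split between the alpha globin copies, and between the beta globin copies, is uncertain.

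Neutrophil markers showed the same pattern at lower levels. Of 20 listed, 19 were tested and 16 fell, or 15 with the length trend removed. Of the 19, 2 passed the filter only through the young libraries, and of the other 17 members 14 fell. The list's sum went from 102 to 114 RPKM at 1 month to 8.75 to 11.1 RPKM at 9 months. S100a8 and S100a9 encode the pair of calcium-binding proteins that fill the neutrophil cytoplasm. S100a9 had 37.5, 33.5 and 35.2 RPKM in the young and 2.38, 3.18 and 2.85 RPKM in the adult libraries, and S100a8 fell from 28.6 ± 3.65 to 2.08 ± 0.588 RPKM. Genes of the granules followed: Ngp, neutrophilic granule protein, had 16.0, 15.6 and 15.7 RPKM and then 1.18, 1.7 and 1.3 RPKM, Camp, the cathelicidin, fell from 6.87 ± 0.600 to 0.675 ± 0.0901 RPKM, and Ltf, lactoferrin, from 3.33 ± 0.118 to 0.267 ± 0.0577 RPKM. Retnlg, a resistin-like protein of myeloid cells, fell from 6.98 ± 0.599 to 0.642 ± 0.245 RPKM. Ngp, Camp and Ltf are made in immature neutrophils of the marrow, and the stage of the cells behind these values was not tested.

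B cell genes fell in the same libraries. The most abundant lymphocyte marker, Cd2, an adhesion receptor of T cells, had 8.46 ± 0.26 and 8.1 ± 0.444 RPKM (log2 fold change −0.06) and was not called. Of 20 lymphocyte markers only 12 were tested, 2 of which passed the filter only through the young libraries and 1 only through the adult ones, since Pax5 and Rag1 were listed at 0 and the T cell genes Cd3d, Cd3e, Cd3g and Trbc2 reached at most 0.2 RPKM. Of the 12, 7 fell, 5 of them among the other 9 members, and 6 were lower with the length trend removed. Igkc, the kappa light chain, had 11.3, 10.2 and 11.8 RPKM at 1 month and 1.1, 0.775 and 0.575 RPKM at 9 months, and Ighm, the heavy chain of immunoglobulin M, fell from 6.82 ± 0.399 to 0.667 ± 0.0878 RPKM. Cd79a and Cd79b, the signalling subunits of the B cell receptor, fell from 1.44 ± 0.166 to 0.192 ± 0.0382 RPKM and from 1.18 ± 0.164 to 0.117 ± 0.0382 RPKM, and Igll1, part of the receptor of precursor B cells, which passed the filter only through the young libraries, was listed at 0 in the adult after 0.175 ± 0.025 RPKM. A pair of variable segments of the kappa light chain, Igkv8-16 and Igkv14-126 (chosen after their values were seen), passed the filter only through the young libraries. Igkv8-16 had 4.15, 4.7 and 5.1 RPKM at 1 month and was listed at 0 in all adult libraries, as was Igkv14-126 after 3.73, 2.35 and 3.55 RPKM. Their log2 fold changes were the largest of all genes, and with 0 in the adult their size depends on the 0.1 RPKM added to every value. The summed level of the lymphocyte list was 32.4 to 33.7 RPKM in the young and 11.6 to 12.5 RPKM in the adult.

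Together the red cell, neutrophil and lymphocyte lists held 42 of the 227 genes that fell, 18.5%. Of these 42, 30 reached 0.1 RPKM in at least 1 adult library, and some of the 30 may still have needed young libraries to pass the filter. The lists also held 12 of the 33 that fell with at least 5 RPKM at some age. Of the 674 genes that rose they held 1. Most genes that fell were therefore outside these lists. Ccdc3, a secreted protein, is in none of these lists: it had 50.9, 54.0 and 52.9 RPKM at 1 month and 7.45, 6.73 and 6.6 RPKM at 9 months, with a log2 fold change of −2.91 (SE 0.0611, limma adjusted p = 1.61e-06). Its values at each age differed by less than 4 RPKM. Sparc, a matrix glycoprotein that binds collagen and is abundant in bone, had 389, 407 and 402 RPKM at 1 month and 170, 181 and 168 RPKM at 9 months (log2 fold change −1.21).

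Bone markers moved in both directions. Of 15 listed, 12 were tested, 3 rose and 2 fell on the deposited scale, and relative to the median of all genes 5 were lower. The 2 that fell were Bglap and Col1a1. Bglap, osteocalcin of osteoblasts, had 2.98, 2.9 and 3.68 RPKM at 1 month and 0.15, 0.075 and 0.325 RPKM at 9 months, and Col1a1, the main collagen of bone, fell from 0.625 ± 0.05 to 0.15 ± 0.025 RPKM. Dmp1, a matrix protein of osteocytes, the cells embedded in mature bone, rose from 0.425 ± 0.025 to 1.81 ± 0.227 RPKM, and Mepe, also of osteocytes, which passed the filter only through the adult libraries, was listed at 0 at 1 month and had 0.2 ± 0.0433 RPKM at 9 months. Ibsp, bone sialoprotein, which osteoblasts also make, rose from 0.108 ± 0.0577 to 0.867 ± 0.151 RPKM, and Alpl, the alkaline phosphatase of osteoblasts, had 42.3 ± 1.58 and 63 ± 4.05 RPKM (log2 fold change 0.57, not called). Osteoblast genes thus did not move one way. Spp1, osteopontin, which marginal cells also make, was the third most abundant gene, with 12922, 12227 and 12274 RPKM at 1 month and 6870, 6251 and 6847 RPKM at 9 months. Its log2 fold change of −0.91 passed the threshold only relative to the median of all genes, and it set the sum of the list, 12288 to 12979 RPKM at 1 month and 6334 to 6946 RPKM at 9 months. The cochlea lies in marrow-bearing bone, red cell, neutrophil and B cell genes fell in the same libraries, and their part in the changes of other genes was not tested.

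The machinery of the endocochlear potential was expressed at high level at both ages, and a gap junction gene was among those that rose. Of 25 genes listed, 24 were tested, 4 rose on both scales, Kcnj16 rose on the deposited scale only, and none fell. The list's median was 0.22 above that of all genes. The beta subunits of the sodium-potassium pump, which carry it to the membrane, were not called: Atp1b2 had 532 ± 4.58 and 703 ± 6 RPKM (log2 fold change 0.40), Atp1b1 263 ± 10.8 and 336 ± 33.8 RPKM (0.35), and Atp1b3 450 ± 18 and 462 ± 40.2 RPKM (0.03). None of these 3 passed the threshold of 1, and relative to the median of all genes Atp1b2 was at 0.13, Atp1b1 at 0.07 and Atp1b3 at −0.24.

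Gjb2, connexin 26, the gap junction protein most often mutated in inherited deafness (chromosome 14, 57098600 to 57104702), had 309, 303 and 302 RPKM at 1 month and 752, 719 and 750 RPKM at 9 months (log2 fold change 1.28, limma adjusted p = 5.68e-06). Relative to the median of all genes Gjb2 was at the edge of the threshold. Under median of ratios scaling its log2 fold change was 0.97 and its call was lost. Gjb6, connexin 30, the partner of Gjb2, had 615 ± 5.16 and 752 ± 4.91 RPKM, a log2 fold change of 0.29, close to the shift of all genes. The connexins, with about 2 RPKM of Gjb6 for each of Gjb2 at 1 month by these means, were at nearly the same level at 9 months.

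Genes of potassium secretion by marginal cells stayed close to their young levels. Kcne1 had 694, 777 and 760 RPKM at 1 month and 782, 787 and 753 RPKM at 9 months, with overlapping values and a log2 fold change of 0.06 (limma adjusted p = 0.428). Its channel partner Kcnq1 had 155 ± 6.37 and 170 ± 7.49 RPKM, and Bsnd, barttin, an accessory subunit of chloride channels, 33.7 ± 2.47 and 38.4 ± 2.75 RPKM. Slc12a2, the sodium-potassium-chloride cotransporter of the basolateral membrane, had 614, 552 and 567 RPKM in the young and 960, 716 and 1000 RPKM in the adult, where library B was well below the other pair. Its log2 fold change of 0.61 did not reach 1 and was −0.03 with the length trend removed. The channels of intermediate cells went in opposite directions, both short of the threshold: Kcnj10, which generates the potential, had 171 ± 2.34 and 256 ± 9.98 RPKM (log2 fold change 0.58), and Kcnj13 had 212 ± 1.77 and 149 ± 3.04 RPKM (−0.51).

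**Figure D4:**
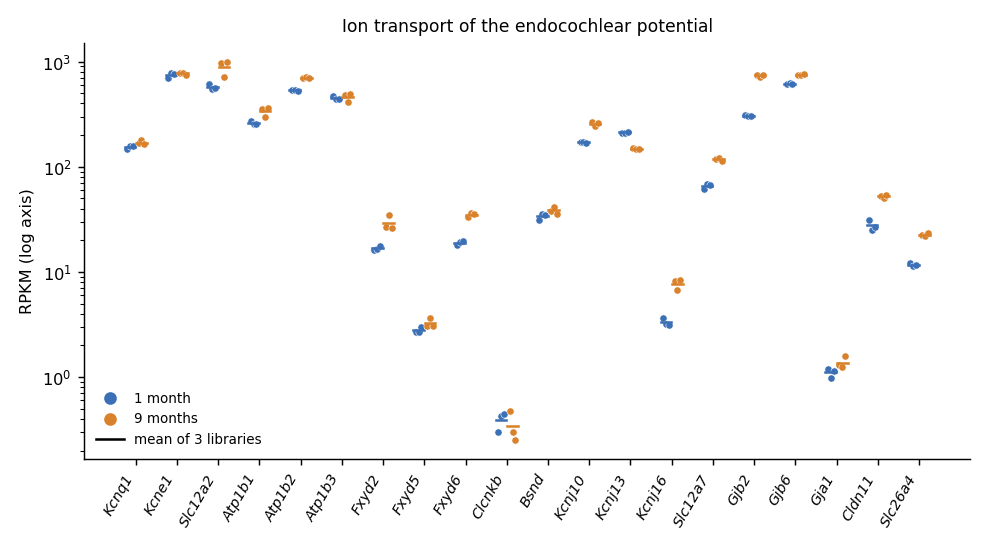
RPKM (log axis) of 20 tested genes of endocochlear potential ion transport, 1 point per library (3 at 1 month, blue, 3 at 9 months, orange) with a bar at the mean. Gjb2 goes from 305 to 740 RPKM, whereas Kcne1 has 743 and 774 RPKM.

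Markers of the 3 strial layers differed in their balance. Marginal cell markers had 3 of 14 members higher and none lower, with a list median of 0.02 relative to all genes. Among them were Wnk2, a kinase that regulates chloride cotransporters, with 3.28 ± 0.202 and 10.5 ± 0.52 RPKM, and Emx2, a homeodomain factor, with 0.408 ± 0.0144 and 1.4 ± 0.132 RPKM. Intermediate cell and melanin genes had 2 of 18 tested members that rose and 1 that fell, with a median of −0.14. Kit, the receptor tyrosine kinase of melanocytes, had 0.1, 0.125 and 0.125 RPKM at 1 month and 0.725, 0.575 and 0.6 RPKM at 9 months, and Pmel, the fibril protein of melanosomes, rose from 0.392 ± 0.0577 to 1.26 ± 0.0946 RPKM. Slc24a5, an ion exchanger of the melanosome, fell from 9.56 ± 0.559 to 4.49 ± 0.275 RPKM. The abundant pigment genes differed little, with 391 ± 12.5 and 362 ± 7.05 RPKM for the transporter Slc45a2 and 425 ± 7.13 and 543 ± 5.11 RPKM for the melanosomal glycoprotein Gpnmb. Summed over the list, the 1-month range of 6115 to 6272 RPKM overlapped the 9-month range of 6001 to 6133 RPKM. Basal cell markers had 2 of 7 higher and none lower, and all 7 lay above the median of all genes (list median 0.64). They were Gjb2 and Tjp1, the tight junction scaffold ZO-1, which had 4.48 ± 0.309 and 12.9 ± 1.66 RPKM and was not called with the length trend removed. Cldn11, the claudin that seals the basal layer, had 31.3, 24.95 and 26.8 RPKM at 1 month and 52.3, 50.2 and 54.2 RPKM at 9 months, a log2 fold change of 0.92, just under the threshold. Of 8 spindle and root cell markers tested, none was called on both scales and 6 had an unadjusted limma p below 0.05, beside 67.3% of all genes. Slc26a4, pendrin, the bicarbonate exchanger mutated in Pendred syndrome, had 11.7 ± 0.366 and 22.5 ± 0.884 RPKM (log2 fold change 0.94).

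Transport of bicarbonate and handling of thyroid hormone and retinoids stood out through single genes. Of 17 bicarbonate transporters and carbonic anhydrases tested, 4 rose and none fell. With a median of 0.17 relative to all genes, and −0.08 with the length trend removed, the list as a whole stood near them. Slc4a10, a sodium-coupled bicarbonate transporter, had 0.4, 0.3 and 0.25 RPKM at 1 month and 4.48, 3.38 and 4.93 RPKM at 9 months, a log2 fold change of 3.39, and Car4, a membrane-bound carbonic anhydrase, rose from 0.133 ± 0.0144 to 0.817 ± 0.118 RPKM, beside Slc4a11 and Car3. The abundant cytosolic and membrane enzymes did not follow: Car2 had 311 ± 5.33 and 225 ± 9.35 RPKM, and Car14 307 ± 12.5 and 268 ± 4.97 RPKM. Of 17 thyroid hormone and retinoid genes tested, 5 rose and none fell, with a median of 0.55 relative to all genes and 0.48 with the length trend removed. With Ttr rose Slco1c1, a transporter of thyroxine, which had 3.58, 3.4 and 3.13 RPKM and then 13, 11.2 and 12.7 RPKM, and the retinoic acid receptor Rarg, with 1.72 ± 0.161 and 6.4 ± 0.434 RPKM. Stra6, the receptor that takes up retinol, rose from 0.45 ± 0.0433 to 1.86 ± 0.146 RPKM, and Cyp26b1, which degrades retinoic acid, from 0.1 to 0.508 ± 0.0382 RPKM. Aldh1a2, which makes retinoic acid, was far more abundant and had 118 ± 1.82 and 130 ± 6.98 RPKM (log2 fold change 0.14).

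Collagens of the cartilage type were among the matrix genes that rose. Of 26 collagen genes tested, 5 rose and 1 fell, beside 4.42% and 1.49% of all genes. With the length trend removed 4 were higher and 4 lower. Col11a2 had 9.93, 11.8 and 11.5 RPKM at 1 month and 41.7, 44.6 and 40.9 RPKM at 9 months, and Col2a1, the main collagen of cartilage, had 1.4, 1.78 and 1.6 RPKM and then 6.78, 7.28 and 6.23 RPKM. Both rose with the length trend removed, with log2 fold changes of 1.43 and 1.43. The type IX chains, which coat type II fibrils, had log2 fold changes under the threshold, with 11.7 ± 0.744 and 23.0 ± 0.62 RPKM for Col9a3 (0.97) and 11.6 ± 0.65 and 20.5 ± 1.71 RPKM for Col9a2 (0.82). Over the list the median relative to all genes, 0.28, came to −0.01 with the length trend removed, beside a median exon length of 7243 bases for the list and 4019 for all genes tested. Col9a1 and Col9a2 also belong to the fibrocyte list, whose increase is given above and whose part in these values was not tested.

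Basement membrane genes divided. Of 16 tested, 6 were higher on the deposited scale, 3 relative to the median of all genes and none with the length trend removed, while Sparc was lower on all 3. Fn1, fibronectin, had 4.55, 4.7 and 4.83 RPKM at 1 month and 15.03, 15.2 and 14.4 RPKM at 9 months, and Lama5, a laminin chain, rose from 2.53 ± 0.257 to 8.13 ± 0.534 RPKM. With the trend removed their log2 fold changes were 0.98 and 0.99, at the edge of the threshold. Among proteases and their inhibitors, Reck, a membrane-anchored inhibitor of metalloproteinases, rose from 1.94 ± 0.0382 to 5.62 ± 0.455 RPKM, and Mmp15, a membrane-type metalloproteinase, from 2.03 ± 0.232 to 6.15 ± 0.628 RPKM. Mmp9, a protease of neutrophils, fell from 0.558 ± 0.0764 to 0.108 ± 0.0144 RPKM with the other neutrophil genes. Collagen-modifying enzymes had 1 of 16 that rose, Loxl1, at low level.

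Of 15 genes of the insulin-like growth factor axis, none fell and 3 rose, 2 of which did not pass the filter through the adult libraries alone. These were Igfbp5, Igf1r, the receptor, with 1.85 ± 0.05 and 4.79 ± 0.118 RPKM, and Pappa, a protease that cleaves binding proteins, which passed the filter only through the adult libraries, was listed at 0 at 1 month and had 0.275 ± 0.025 RPKM at 9 months. Igf1 itself had 82.6 ± 4.31 and 74.9 ± 10.5 RPKM, overlapping between ages, and the binding proteins Igfbp7 and Igfbp4 had log2 fold changes of −0.21 and −0.32. Igf1r has a long transcript and was not called with the length trend removed. Imprinted growth genes, many of which are shut down after birth in other tissues, had 1 call on both scales among 11 tested members, Phlda2, which passed the filter only through the adult libraries, at 0.217 ± 0.0382 RPKM. H19 and Meg3 were at most 0.05 RPKM and Dlk1 was listed at 0.

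Genes of vessels rose in small number. Of all genes tested, 4.42% rose and 1.49% fell. Endothelial markers had 2 of 18 that rose and none that fell: Cdh5, the cadherin of endothelial junctions, had 0.775, 0.825 and 0.775 RPKM at 1 month and 3, 3.28 and 3.15 RPKM at 9 months (log2 fold change 1.86), and Vwf, von Willebrand factor, rose from 0.3 ± 0.025 to 1.01 ± 0.052 RPKM. With the length trend removed the log2 fold change of Vwf was 0.70 and it was not called. The more abundant Ly6c1 had 45.1 ± 0.532 and 43.3 ± 0.738 RPKM and Cldn5, the claudin of capillaries, 22 ± 2.76 and 35.9 ± 3.48 RPKM, neither called. Pericyte markers had 3 of 13 that rose and none that fell. Anpep, an aminopeptidase on pericytes, had 0.375, 0.375 and 0.275 RPKM and then 2, 1.8 and 1.98 RPKM, Notch3, the Notch receptor of mural cells, rose from 0.575 ± 0.0661 to 2.43 ± 0.0878 RPKM, and Rgs5, a regulator of G protein signalling, from 8.72 ± 0.43 to 24.4 ± 4.69 RPKM. Pdgfrb, the defining receptor of these cells, had 4.58 ± 0.166 and 7.72 ± 0.254 RPKM (log2 fold change 0.74). The summed levels were 125 to 134 RPKM against 168 to 180 RPKM for endothelium and 48.7 to 50.6 RPKM against 77.6 to 80.3 RPKM for pericytes. Of 16 Notch pathway genes, 3 rose, Notch1, Notch3 and the ligand Jag1, and only Notch3 of these was called with the length trend removed. Notch1 had 1.54 ± 0.113 and 4.96 ± 0.236 RPKM, and the effectors Heyl and Hes1 had log2 fold changes of 0.56 and −0.06. Vegfa, the main growth factor of capillaries, had 14.5 ± 0.37 and 26.4 ± 1.07 RPKM, a log2 fold change of 0.86 that did not reach the threshold.

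Resident immune cells differed from the blood cells. Of 23 macrophage markers, 22 were tested, 1 rose and none fell, and the list's median was −0.20 relative to all genes. Lyz2, lysozyme of macrophages and neutrophils, had 85.1, 84.7 and 82.8 RPKM at 1 month and 262, 259 and 254 RPKM at 9 months (log2 fold change 1.62, limma adjusted p = 4.09e-06), opposite to the neutrophil markers. The adaptor Tyrobp had 27.3 ± 1.94 and 26.9 ± 3.15 RPKM and the complement component C1qb 25.6 ± 1.11 and 23.6 ± 1.69 RPKM, so the summed level of the list, 231 to 242 RPKM and then 412 to 430 RPKM, was set largely by Lyz2. Of 16 complement genes, C1s1 and Cfd rose, with C1s1, a protease of the classical pathway, at 0.533 ± 0.0946 and 2.05 ± 0.261 RPKM. None of 9 genes of antigen presentation by MHC class I and none of 6 of class II was called with limma, and 6 genes of each class had an unadjusted p below 0.05, beside 67.3% of all genes. Among them Cd74, the invariant chain, had 5.9 ± 0.388 and 8.53 ± 0.603 RPKM. Interferon response genes had no call on both scales among 22, of which 77.3% had an unadjusted limma p below 0.05, beside 67.3% of all genes, and the abundant Ifitm3, an antiviral membrane protein, had 729 ± 8.84 and 452 ± 58.8 RPKM (log2 fold change −0.70).

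Energy metabolism genes lay a small distance below the other genes in nearly every case. The nuclear genes of the respiratory chain formed the tightest list: of 77 tested, 76 had a log2 fold change below 0, against 29.0% of all genes, and their quartiles relative to all genes were −0.85 and −0.71 around a median of −0.76. In the limma fit 75, or 97.4%, had an unadjusted p below 0.05, beside 67.3% of all genes tested, but on the deposited scale none passed the threshold of 1, and relative to the median of all genes 5 were lower, 2 with the length trend removed. Cox7a1, a subunit of cytochrome oxidase, had 371, 357 and 363 RPKM at 1 month and 166, 217 and 171 RPKM at 9 months (log2 fold change −0.99), and library B was the least reduced. Ndufa1, a subunit of complex I, had 996 ± 20.9 and 612 ± 18.9 RPKM, and Cox8a 1454 ± 11.7 and 1085 ± 160 RPKM. Respiratory chain genes are short and abundant, and among all genes of at least 10 RPKM in the shortest of the 5 length bins the median was −0.23 on the deposited scale, beside −0.49 for this list. With the length trend removed 76 of the 77 were still below 0, with a median of −0.49. Under quantile normalization the median relative to all genes was −0.34.

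The genes of the mitochondrial genome moved in the same direction with more spread. All 13 lay below the median of all genes, and mt-Co3, a subunit of cytochrome oxidase, fell, with 16530, 13448 and 14145 RPKM at 1 month and 7473, 5983 and 7668 RPKM at 9 months (log2 fold change −1.07), but its call was lost under several settings. Its log2 fold change was −0.94 with the length trend removed, −0.19 under quantile normalization, −0.92 with array weights, −0.98 without library A at 1 month and −0.95 without library B at 9 months. The list's median relative to all genes was −0.79, −0.40 with the length trend removed and −0.18 under quantile normalization. Of the 13, 5 had an unadjusted limma p below 0.05, or 38.5%, beside 67.3% of all genes. Mitochondrially encoded genes took 10.4 to 13.1% of summed RPKM at 1 month and 5.33 to 8.44% at 9 months, lowest in library B. The TCA cycle genes are not short, with a median exon length of 4145 bases against 4019 for all genes tested. Of these, 15 of 16 lay below the median of all genes (list median −0.50, −0.55 with the length trend removed and −0.16 under quantile normalization). Mdh2, malate dehydrogenase, had 212 ± 10.8 and 162 ± 14.4 RPKM, whereas Cs, citrate synthase, had 101 ± 3.45 and 106 ± 1.22 RPKM. None of the 16 was called on either scale, and 13, or 81.2%, had an unadjusted limma p below 0.05, beside 67.3% of all genes. Ribosomal protein genes had the same sign: 79 of 81 cytosolic and 75 of 77 mitochondrial members lay below the median of all genes, none of them past the threshold, with medians of −0.47 and −0.54, or −0.20 and −0.37 with the length trend removed. An unadjusted limma p below 0.05 was found for 46.9% of the cytosolic and 70.1% of the mitochondrial members, beside 67.3% of all genes. Glycolysis genes had 16 of 19 below it, for example Ldhb, lactate dehydrogenase, with 1184 ± 45.1 and 919 ± 61.1 RPKM, and no call on both scales. On the deposited scale the lists of the proton pump, glycolysis and antioxidants had medians of −0.05, −0.09 and −0.13, so their distance from other genes rests mostly on the shift of all genes, and under quantile normalization the glycolysis and proton pump medians were 0.00 and 0.02.

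Part of the cell cycle genes were lower in the adult. Of 31 cell cycle genes tested, 9 were lower on both scales, beside 1.49% of all genes, none was higher, and 12 were lower with the length trend removed. The 9 were at low level already at 1 month. Ccnb2, a mitotic cyclin, had 1.08, 1.03 and 1.05 RPKM at 1 month and 0.15, 0.2 and 0.125 RPKM at 9 months (log2 fold change −2.16, limma adjusted p = 1.68e-05), Plk1, the mitotic kinase, fell from 0.517 ± 0.0289 to 0.108 ± 0.0144 RPKM, and Birc5, survivin, from 0.483 ± 0.0144 to 0.108 ± 0.0144 RPKM. Rrm2, the inducible subunit of ribonucleotide reductase, fell from 1.74 ± 0.0946 to 0.383 ± 0.052 RPKM, while its constitutive partner Rrm1 had 6.02 ± 0.194 and 7.83 ± 0.427 RPKM. The helicase genes Mcm7 and Mcm4 had 4.99 ± 0.321 and 5.45 ± 0.304 RPKM and 3.55 ± 0.261 and 5.03 ± 0.541 RPKM, and Pcna had 11.6 ± 0.628 and 9.61 ± 0.406 RPKM, without a call. The calls rest on genes near the floor. The list's median relative to all genes, −0.63, was −0.04 with the filter set to 1 RPKM in at least 3 libraries, which 12 of the 31 genes pass. With a pseudocount of 0.5 RPKM in place of 0.1 the log2 fold changes of Plk1 and Birc5 were −0.74 and −0.69. The histone gene Hist1h2ap, whose transcript is made during DNA replication, had 19.5, 23.8 and 24.4 RPKM and then 5.3, 5.75 and 4.68 RPKM, the largest fall among 43 clustered histone genes. Of the 43, 5 were lower and 3 higher on the deposited scale, and 12 lower and 1 higher relative to the median of all genes. With the length trend removed 3 were lower and 3 higher. The histone list's median relative to all genes was −0.61, and −0.25 with that trend removed. Histone transcripts are short and mostly lack a poly(A) tail. Red cell and neutrophil precursors of the marrow divide, their markers fell in the same libraries, and their part in the cell cycle result was not tested. Among inhibitors of the cell cycle, Rb1, the retinoblastoma gene, rose from 1.65 ± 0.205 to 4.67 ± 1.12 RPKM but not with the length trend removed, Cdkn1a had 131 ± 6.02 and 89.2 ± 3.31 RPKM (log2 fold change −0.56), and Cdkn2a was listed at 0.

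Some immediate early and heat shock genes, which cells switch on within a short time of a stimulus, were higher in the adult. Of 22 immediate early genes, 4 rose, beside 4.42% of all genes, and none fell, with a list median of 0.02 relative to all genes. Klf4, a zinc finger factor, had 5.76 ± 0.25 and 16.8 ± 0.25 RPKM, Atf3, a stress-induced factor, rose from 1.23 ± 0.238 to 4.28 ± 0.247 RPKM. Egr1, a zinc finger factor, had 1.56 ± 0.252 and then 4.02 ± 0.3 RPKM, and Fosl2, of the AP-1 family, rose from 0.183 ± 0.0144 to 0.917 ± 0.0382 RPKM. The more abundant Jund and Ier3 had log2 fold changes of −0.16 and 0.07. Of 25 chaperone genes, 2 rose. Hspa1b, an inducible heat shock protein, had 13.9, 16.1 and 15.7 RPKM at 1 month and 65.0, 59.5 and 66.6 RPKM at 9 months, and its cochaperone Dnajb1 rose from 12.2 ± 0.875 to 30.4 ± 0.232 RPKM. Hspa1a, a near-identical copy of Hspa1b, was higher on the deposited scale only, and the split of reads between the copies is uncertain. The constitutive Hspa8 had 226 ± 4.63 and 265 ± 8.05 RPKM (log2 fold change 0.23), below the shift of all genes.

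Transcription factors of the lateral wall leaned upward, with 17 of 21 above the median of all genes (list median 0.36, and 0.21 with the length trend removed). Pax2, an otic homeodomain factor, rose from 0.358 ± 0.0289 to 1.33 ± 0.177 RPKM together with Emx2. Mitf, the master regulator of melanocytes, had 5.72 ± 0.205 and 12.5 ± 2 RPKM and was higher on the deposited scale only, with 0.82 relative to the median of all genes. Sox10, which acts with Mitf in pigment cells, had 59.4 ± 5.53 and 118 ± 9.03 RPKM, a log2 fold change of 0.99, and Tbx1, needed for the lateral wall to form, had 56.4 ± 4.93 and 64.3 ± 7.9 RPKM.

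**Figure D5:**
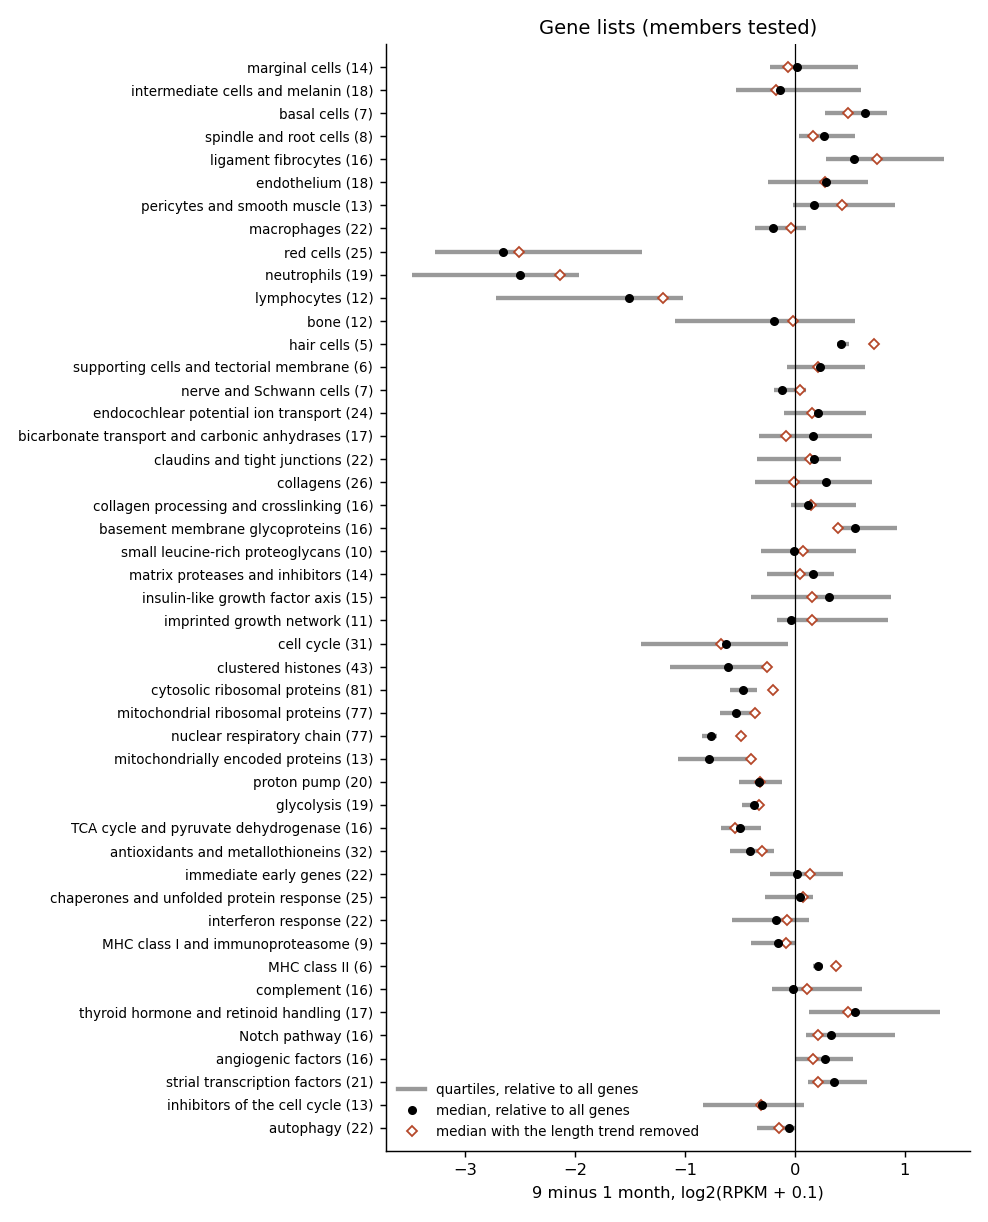
Median log2 fold change from 1 to 9 months of each gene list relative to the median of all genes (black points) with quartiles (grey bars), and the median with the length trend removed (open diamonds); numbers in brackets are members tested. Red cells (−2.66), neutrophils (−2.50) and lymphocytes (−1.51) lie lowest, the metabolic lists lie between −0.79 and −0.32, and basal cells (0.64), thyroid hormone and retinoid handling (0.55), basement membrane (0.55) and fibrocytes (0.54) lie highest.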

How the data were processed

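Total RNA was extracted from the dissociated cells, converted to cDNA with SMARTer low-input chemistry and sequenced from Nextera libraries. Paired reads were aligned by the authors to mm10 (GRCm38) in CLC Genomics Workbench (version not given in the sources used here), and the authors deposited RPKM values for 48709 genes. All values are multiples of 0.025 RPKM, as a mean of 4 runs rounded to 0.1 gives. The values were not split by run and came without read counts, and the raw reads, which the study reports as public, were not used. The study gives only an approximate number of reads per sample. The depth of each library is therefore unknown here, and no counting interval is given. Strand is not stated, so overlapping genes cannot be told apart. Tables of the authors' means, p-values and log2 fold changes were not used.

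log2(RPKM + 0.1) of genes reaching 0.1 RPKM in 3 or more of the 6 libraries was fitted with limma 3.58.1 (R 4.3.3), with 1 mean per age, empirical Bayes moderation with a trend, two-sided tests and Benjamini-Hochberg adjustment over all genes tested. The second scale subtracts the median log2 fold change. For the third, a lowess trend of each library on exon length (GENCODE M21, which matched 48349 genes) was removed. Fold changes on the log2(RPKM + 0.1) scale understate those of low genes. Tables and plots used Python 3.11.15, pandas 2.3.3, numpy 2.4.6 and matplotlib 3.10.9, and the fit was tested on simulated data.

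The comparison, the 47 gene lists with 1095 memberships (987 tested, Itgam and Ahsp not found) and the rules were chosen with earlier results of these data known. Lists are described by counts and medians, with no set test. Named are the 15 genes per direction with the largest change among those called on both scales with at least 5 RPKM at some age, no overlap and no predicted or pseudogene name, up to 6 called and the 4 most abundant members of each list, all ion transport genes, the most abundant genes, Xist and Ddx3y, and others as marked, except some genes that are not reported here. Letters pair no samples: deviations of same-lettered libraries correlated at 0.21, 0.26 and −0.05 across genes.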

Additional observations from a re-analysis of the deposited data

How the results depend on the processing

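The 30 genes of the naming rule, chosen for large changes without overlap, kept their calls under all 22 alternatives. No called gene of the lists turned its sign. The number of calls depended on the low end and on scaling. With a pseudocount of 0.01 RPKM, 1130 genes were higher relative to the median of all genes. With 0.5 the counts were 693 higher and 78 lower, 321 and 146 relative to the median, which was 0.21, and with 1 they were 408 and 45, 199 and 84, with a median of 0.16. Without a filter the median was 0.20. At 1 RPKM or more, 80 genes were lower, and 151 relative to the median. Quantile normalization gave 524 and 444 with a median of −0.0079, and median of ratios scaling 721 and 389 with a median of −0.00255. With the length trend removed 603 were higher and 293 lower, with a median of −0.019. Without the fold threshold 8220 were higher and 2498 lower, and 5126 and 5149 relative to the median.

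The lettered libraries share a letter only: with the letter as a replicate block, 1587 genes were higher and 229 lower, and 675 and 417 relative to the median, and of 300 named or listed genes none changed its call. Leaving out each library in turn gave 1509 to 1837 higher and 219 to 261 lower, and 679 to 719 and 396 to 521 relative to the median. The 300 genes include members named for abundance, and 121 of them gained a call only without the fold threshold, so these had no call to lose. A call was lost by 41 genes with the length trend removed, 39 with a pseudocount of 0.5 and 62 with 1. Libraries that nearly copy each other within an age limit what the spread can show. The read depth of each library is unknown, and genes under about 1 RPKM rest on steps of 0.025 RPKM.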

Other observations

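Some groups showed few or no calls. Of 22 claudins and other tight junction genes, Tjp1 rose, and Cldn4 was higher on the deposited scale only, with 3.78 ± 0.413 and 9.13 ± 0.52 RPKM. The abundant claudins of the list had values on the other side of the shift: Cldn9 had 848 ± 65.8 RPKM at 1 month and 578 ± 48 RPKM at 9 months (log2 fold change −0.55), and Cldn3 104 ± 9.13 and 64.6 ± 12.1 RPKM (−0.70), both short of the threshold. Proton pump genes had 1 of 20 that rose, Atp6v0d2, a subunit known from osteoclasts that passed the filter only through the adult libraries, listed at 0 at 1 month and at 0.45, 0.275 and 0.625 RPKM at 9 months. The osteoclast enzymes Acp5 and Ctsk had log2 fold changes of 0.15 and 0.12. No antioxidant gene among 32 was called on either scale, and 65.6% had an unadjusted limma p below 0.05, beside 67.3% of all genes. Gsta4, a glutathione transferase, had 2550 ± 29.3 and 2225 ± 133 RPKM and Gpx3, a secreted peroxidase, 1916 ± 61.3 and 2258 ± 65.1 RPKM. Of 22 autophagy genes none was called on both scales, 54.5% had an unadjusted limma p below 0.05, beside 67.3% of all genes, and Ulk1, the initiating kinase, was higher on the deposited scale, with 5.96 ± 0.454 and 12.8 ± 0.338 RPKM.

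Most hair cell markers did not pass the filter on low values. Of 17 hair cell markers 5 were tested, and Espn, an actin bundler, rose from 0.1 to 0.4 ± 0.0661 RPKM but not with the length trend removed, while Ocm, oncomodulin of outer hair cells, had 1.08 ± 0.0577 and 1.95 ± 0.492 RPKM. Ceacam16, a protein of the tectorial membrane, was the most abundant supporting cell marker, with 12.2 ± 1.44 and 15.8 ± 1.99 RPKM. None of 7 nerve and Schwann cell markers tested was called, and 57.1% had an unadjusted limma p below 0.05, beside 67.3% of all genes. The neuronal genes Nefm and Rbfox3 were at most 0.025 RPKM.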
